A study of Mus musculus with 8 samples.

Results

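Accessible chromatin was measured at 10 genes for receptors through which growth factors, interferons and interleukins act on dendritic cells: Flt3, Kit, Csf1r, Csf2rb, Csf2rb2, Csf3r, Ifnar1, Ifnar2, Ifngr1 and Il4ra. Every region of the deposited count table that overlapped the span of one of these genes, or lay within 30 kb of it, was taken (GRCm38). That gave 107 of the 59906 regions in the table. Regions were chosen by position alone, and 7 of the 107 lay in the windows of both Csf2rb and Csf2rb2, which are neighbours. The libraries came from splenic cDC1 of mice, the type 1 subset of conventional dendritic cells, purified by sorting. The 4 OPA1KO libraries were from CD11c-Cre;OPA1 flox mice, in which a recombinase driven from CD11c regulatory sequence acts on a floxed gene for OPA1, a GTPase of the inner mitochondrial membrane. The 4 WT libraries were from WT mice, and whether these carried Cre was not given. Age and treatment beyond the genotype were not given for either group, and the labels do not tie libraries to single animals, so p-values measure the spread between libraries, which may be technical. The deleted part of Opa1 is not in the labels, and no genotype check was made.

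FLT3, KIT and CSF1R are receptor tyrosine kinases of one class. FLT3, bound by FLT3 ligand, drives the formation and upkeep of dendritic cells, KIT binds stem cell factor on progenitors and mast cells, and CSF1R, the receptor for CSF1 and IL-34, sustains monocytes and macrophages. CSF2RB is the signalling chain shared by the receptors for GM-CSF, IL-3 and IL-5, CSF2RB2 is a related, IL-3-specific chain found in mice, and CSF3R is the G-CSF receptor. IFNAR1 and IFNAR2 form the receptor for type I interferons, IFNGR1 is the ligand-binding chain of the interferon gamma receptor, and IL4RA is shared by the receptors for IL-4 and IL-13. These cytokine receptors have no kinase domain and signal through JAK kinases and STAT transcription factors. ATAC-seq, in which a transposase cuts accessible DNA and adds sequencing adapters, reads how open the chromatin of a gene is, not how much of its RNA or protein is made.

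All 8 genes with a known start had a region there, and Csf1r and Csf2rb, which had none in the table of starts, had a region at an end of the gene model. Levels there were set per kb of region, as CPM (counts set to a common library size, after the TMM scaling of edgeR), because the start regions were 253 to 999 bp wide. Over all 8 libraries, the order was Ifnar1 at 230 ± 23.6 CPM per kb (SD, n = 8), Ifngr1 at 166 ± 11.7, Il4ra at 104 ± 12.0, Flt3 at 55.7 ± 4.16, Csf1r at 34.8 ± 5.13, Csf2rb at 25.0 ± 4.56, Kit at 24.4 ± 3.42, Ifnar2 at 21.8 ± 3.28, Csf3r at 18 ± 2.32 and Csf2rb2 at 16.4 ± 4.32 CPM per kb. From Ifnar1 down to Flt3, the libraries of each gene lay above all libraries of the next, and so did those of Flt3 above Csf1r. From Csf1r down, neighbours in the order overlapped in their libraries. Of 27025 genes with a start in the RefSeq promoter table, 12105 had a region there, with a median of 54.8 CPM per kb for the highest such region of each gene. On that scale Ifnar1 lay at percentile 97.3, Ifngr1 at 91.0, Il4ra at 75.6 and Flt3 at 50.8. Kit at 23.8, Ifnar2 at 20.8, Csf3r at 15.6 and Csf2rb2 at 12.6 lay in the lower part. The place of Ifnar2 depends on the width of its region, 999 bp. Without division by width, its 21.8 CPM lay at percentile 80.7 of all tested regions, near Flt3 with 25.5 CPM at percentile 83.2. For Csf1r and Csf2rb no start was in that table, so they got no percentile, and the region at the end of the gene model nearer the lower coordinate was used.

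**Figure D1:**
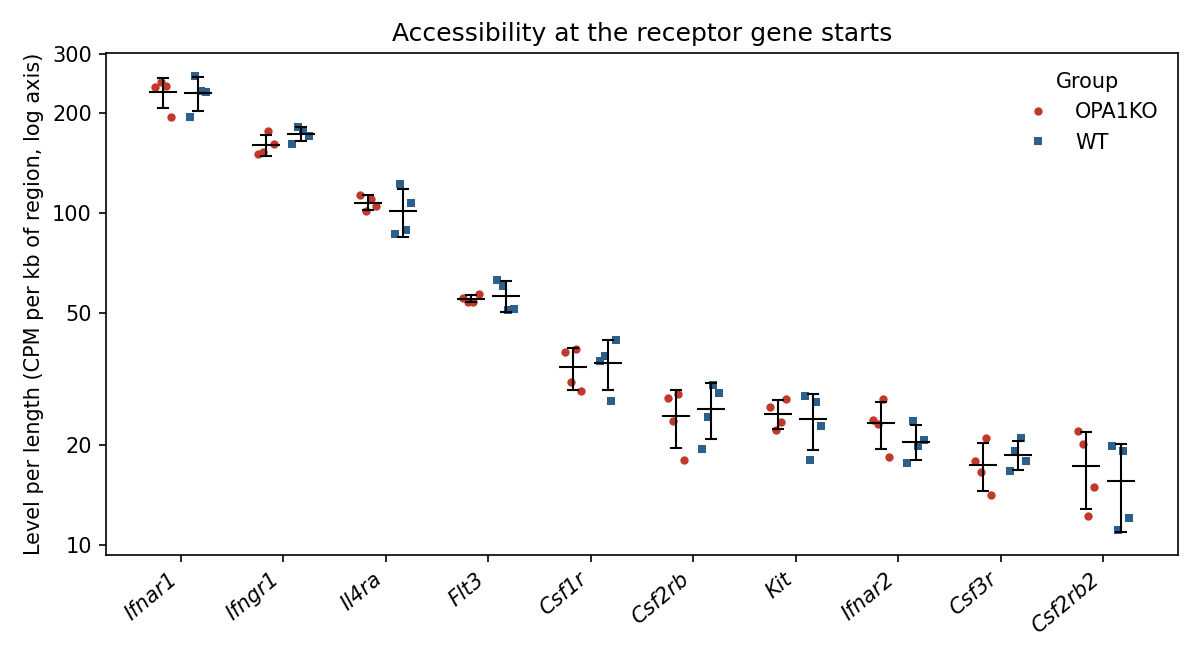
Level of the start region of each receptor gene in each library, in CPM per kb on a log axis, with OPA1KO libraries left of WT libraries within a gene and bars at each group mean and SD (n = 4 each). Ifnar1 and Ifngr1 stand highest and Csf2rb2 lowest, and the OPA1KO and WT points overlap at every gene.

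The stretch of 250 bases before the start is shown for 6 of the genes, chosen to span this order from top to bottom. They are RefSeq sequences of GRCm38.p6, 5′ to 3′ on the strand of the gene, and capitals mark CG dinucleotides, which are dense in the promoters called CpG islands. The stretches are chr16:91484965-91485214 (plus strand) for Ifnar1, chr10:19591699-19591948 (plus) for Ifngr1, chr7:125552021-125552270 (plus) for Il4ra, chr5:147400490-147400739 (minus) for Flt3, chr5:75574737-75574986 (plus) for Kit and chr15:78305722-78305971 (minus) for Csf2rb2.
Ifnar1: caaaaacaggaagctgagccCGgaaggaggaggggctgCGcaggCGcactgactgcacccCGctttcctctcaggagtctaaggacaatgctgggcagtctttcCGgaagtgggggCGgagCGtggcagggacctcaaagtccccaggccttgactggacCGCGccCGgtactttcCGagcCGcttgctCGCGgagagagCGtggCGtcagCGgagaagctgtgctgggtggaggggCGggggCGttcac
Ifngr1: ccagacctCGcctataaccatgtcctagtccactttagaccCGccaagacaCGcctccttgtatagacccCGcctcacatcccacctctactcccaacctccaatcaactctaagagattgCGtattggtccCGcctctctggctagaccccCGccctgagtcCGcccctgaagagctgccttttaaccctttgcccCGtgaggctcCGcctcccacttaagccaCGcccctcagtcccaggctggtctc
Il4ra: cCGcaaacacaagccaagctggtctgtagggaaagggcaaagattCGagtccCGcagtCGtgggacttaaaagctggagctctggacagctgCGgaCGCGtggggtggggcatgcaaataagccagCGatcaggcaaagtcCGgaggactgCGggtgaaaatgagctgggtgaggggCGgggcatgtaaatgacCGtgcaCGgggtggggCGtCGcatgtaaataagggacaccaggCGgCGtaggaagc
Flt3: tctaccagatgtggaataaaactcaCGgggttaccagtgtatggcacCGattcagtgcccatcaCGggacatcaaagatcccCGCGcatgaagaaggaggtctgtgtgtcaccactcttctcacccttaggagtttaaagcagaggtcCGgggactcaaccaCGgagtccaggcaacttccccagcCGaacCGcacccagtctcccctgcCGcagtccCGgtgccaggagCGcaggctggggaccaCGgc
Kit: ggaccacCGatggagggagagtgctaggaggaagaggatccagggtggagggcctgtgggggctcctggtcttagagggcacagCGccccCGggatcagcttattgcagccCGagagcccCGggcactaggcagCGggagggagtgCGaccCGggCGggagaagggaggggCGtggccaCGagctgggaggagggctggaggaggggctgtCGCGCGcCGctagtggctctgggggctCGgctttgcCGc
Csf2rb2: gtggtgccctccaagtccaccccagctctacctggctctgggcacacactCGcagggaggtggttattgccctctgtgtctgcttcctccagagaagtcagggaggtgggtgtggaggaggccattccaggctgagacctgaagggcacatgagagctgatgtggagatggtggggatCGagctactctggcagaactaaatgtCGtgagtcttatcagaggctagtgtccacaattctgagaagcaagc

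A region of the table overlapped each of these stretches, and also those of Csf3r and Ifnar2. Ifnar1 had 19 CG dinucleotides in its 250 bases, Il4ra 17, Kit 17, Flt3 13, Ifngr1 11, Ifnar2 11, Csf3r 6 and Csf2rb2 3. Over the 32851 promoters of the table, the share with a region at the start was 7.89% for those with 0 to 4 CG dinucleotides and 83.3% for those with 20 or more. The median level of those regions was 23.8 CPM per kb in the first class and 77.0 CPM per kb in the last. The receptor genes spread widely at one CG count. Ifngr1 and Ifnar2 both had 11, with 166 and 21.8 CPM per kb, and Il4ra and Kit both had 17, with 104 and 24.4 CPM per kb. The class of 10 to 14 CG dinucleotides had a median of 55.5 CPM per kb with quartiles of 29.8 and 95.2, and the class of 15 to 19 had a median of 70.3 with quartiles of 38.5 and 117. Ifngr1 and Ifnar1 lay above the upper quartile of their classes, Ifnar2 and Kit lay below the lower one, and Flt3 and Il4ra lay between the quartiles.

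**Figure D2:**
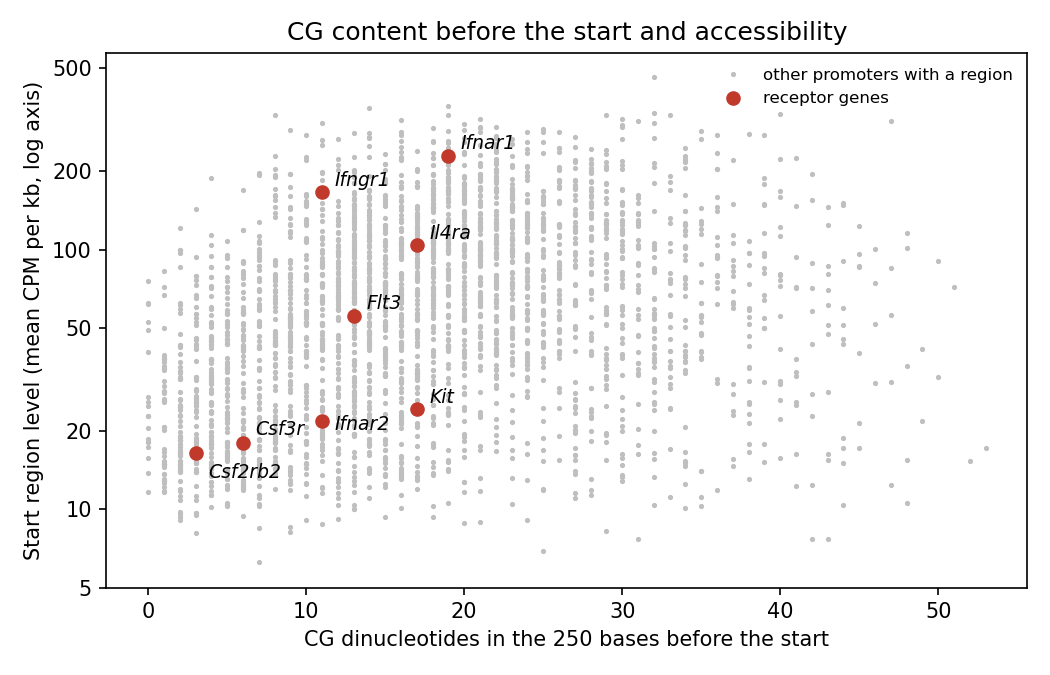
Level of the start region in CPM per kb (log axis, mean of 8 libraries) against the number of CG dinucleotides in the 250 bases before the start, for receptor genes with a promoter sequence (labelled) and for 3000 promoters drawn from the table (grey). Csf2rb2 and Csf3r sit low at 3 and 6 CG dinucleotides, and Ifngr1 and Ifnar2 sit far apart at 11.

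Short motifs were looked up in the same 250 bases on both strands, over 9 promoters of the receptor genes (Kit has 2 that nearly coincide) and over the whole table. GGGCGG, the GC box bound by SP and KLF factors, which itself holds a CG, was in both promoters of Kit and in those of Ifnar1, Ifngr1 and Il4ra, and in 32.7% of all promoters. TTCNNNGAA, the core bound by STAT dimers, was in the promoters of Csf2rb2 and Ifnar2, and in 7.02% of all. GAGGAAGT, a core of the ETS factor PU.1, and the interferon-stimulated response element bound by IRF and STAT factors, searched as a pair of GAAA units with 2 bases between them, were in 0 of the 9, against 2.44% and 2.98% of all promoters. A match describes these letters and does not show binding.

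Across the 8 libraries, counts in regions totalled 4660826 to 7590578, and the median count of a receptor gene region in a library was 41. Of all values, 54.1% to 59.9% per library were even numbers, and it is not given if the 2 ends of a read pair were each counted, so the number of independent fragments behind a count may be smaller. Of 12 cDC1 marker genes, 11 had a region at an end, Flt3 among them. So did 11 of 12 monocyte and macrophage and 6 of 7 cDC2 marker genes, beside 3 of 6 for B cells and 2 of 6 for T cells. The count thus does not set cDC1 apart from cDC2 or macrophages. The lineage receptor genes Xcr1 and Clec9a were at 18 and 7.89 CPM in OPA1KO libraries, against 18.2 and 9.89 CPM in WT libraries. Regions at the ends of 10 cDC1 marker genes other than Flt3 summed to 259.8 to 284.2 CPM in OPA1KO libraries and 247.7 to 277.1 CPM in WT libraries, which overlap. Those of 6 cDC2 marker genes summed to 204.6 to 219.9 CPM in OPA1KO libraries and 217.9 to 230.7 CPM in WT libraries, which overlap as well. Of these cDC2 regions 0 of 6 were higher in OPA1KO libraries, beside 5 of the 10 cDC1 regions and 40.1% of all tested regions at gene ends. Counts summed over all regions within 30 kb of a gene were higher for 3 and lower for 4 of the 7 cDC2 marker genes. For cDC1 marker genes other than Flt3 it was 10 and 1, and 51.2% of all genes were higher. In bulk samples such as these, fewer cells with an open region and a less open region in each cell cannot be told apart.

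None of the 106 receptor gene regions that passed the filter on low counts was called different between OPA1KO and WT cDC1 (edgeR quasi-likelihood test, Benjamini-Hochberg adjusted over 59247 regions, smallest adjusted p = 0.537), against 0.0203% of all tested regions. DESeq2 and limma-voom also called 0. Before adjustment, 7 regions had a p under 0.05, of which 6 were higher and 1 was lower in OPA1KO cells, against 6.38% of all tested regions. DESeq2 and limma-voom each gave 6. In 3 regions, all higher in OPA1KO cells, the groups did not overlap, against 3.95% of all tested regions. Fold changes are given as log2 OPA1KO over WT ± standard error. They were above 0 in 59 and below 0 in 47 receptor gene regions with a median of 0.03, beside 29190 and 30057 of all tested regions with a median of -0.00. The receptor gene regions had a median level of 6.51 CPM and a median width of 332 bp, close to the 6.76 CPM and 323 bp of the table.

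Fold changes were also counted by position in the locus. At the genes' own starts and ends, 12 regions had log2 fold changes of -0.11 to 0.19, with 6 above 0, and a median of -0.01. Beside these, all tested regions at gene ends had a median of -0.03, with 5318 above and 7936 below 0. The 95% intervals at those 12 regions reached at most 0.77 from 0 on the log2 scale, so differences within those intervals are not excluded. The intervals are not adjusted for the number of regions and are not a limit of detection. Inside the genes and away from their starts, 16 of 29 regions were above 0, with a median of 0.15. At ends of other genes within the windows it was 4 of 7, with a median of 0.02, and over the other 58 regions 33, with a median of 0.04.

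**Figure D3:**
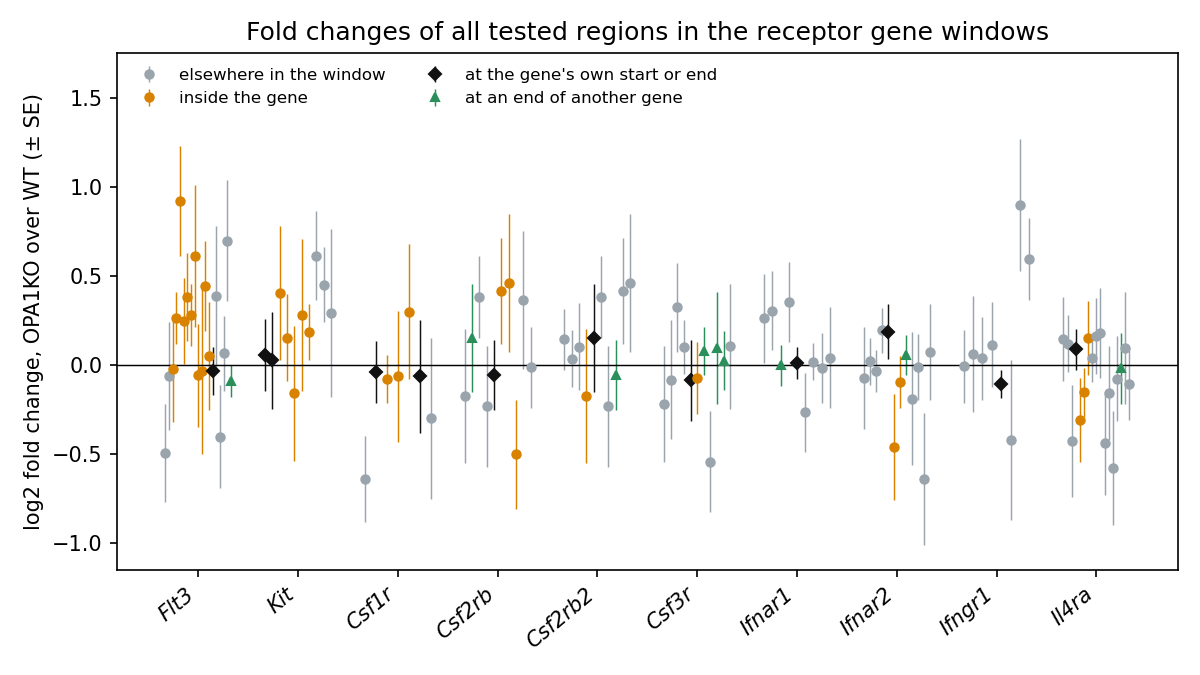
Log2 fold change, OPA1KO over WT, of every tested region in the window of each receptor gene, with a point and standard error for each region and symbols for its position. Points lie on both sides of 0, the highest is the Flt3 region at 0.92, and Kit has 9 of 10 regions above 0.

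Counts were also summed per library over all regions of a gene's window, and the same test was run on 17224 protein-coding genes. It called 4 genes (0.0232%), Itgax, Itgad, Itgam and Cox6a2, and none of the 10 receptor genes (edgeR adjusted p = 1.00 for each). Before adjustment, 770 genes had a p under 0.05 (4.47%), among them Kit of the receptor genes.

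Flt3 lies on chromosome 5 at 147330741 to 147400489 on the minus strand and had 19 regions, the most of the 10 genes. The start region, 147400169 to 147400626, was at 25.3, 24.7, 24.7 and 26.1 CPM in OPA1KO libraries, and 28.8, 27.4, 23.2 and 23.5 CPM in WT libraries. The OPA1KO libraries lay within the WT range, with a log2 fold change of -0.03 ± 0.14 (edgeR adjusted p = 0.987) and a 95% interval of -0.31 to 0.24. It also covers the start of Gm26597, and the reads of the pair cannot be separated.

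Inside Flt3, away from the start, 8 of 11 regions were above 0 with a median log2 fold change of 0.26, which was 0.15 without WT replicate 2. The region at 147340910 to 147341234, about 59.4 kb into the gene, was at 6.98, 5.26, 5.90 and 7.22 CPM in OPA1KO libraries and 4.56, 4.37, 3.17 and 1.08 CPM in WT libraries. Every OPA1KO library was above every WT library, WT replicate 4 being lowest. Its log2 fold change of 0.92 ± 0.31 was the largest of the 106 receptor gene regions that passed the filter and did not pass the test (edgeR unadjusted p = 0.00546, adjusted p = 0.537). At 147363052 to 147363421, values were 13.5, 15.8, 13.1 and 15.1 CPM in OPA1KO libraries, against 11.9, 10.9, 12.0 and 12.6 CPM in WT libraries. These groups did not overlap either, with a log2 fold change of 0.28 ± 0.18 (edgeR adjusted p = 0.847). The region inside the gene with the highest CPM, at 147339056 to 147340011 and wider than the others there, was at 27.2, 27.8, 30.2 and 29.4 CPM in OPA1KO libraries and 27.7, 17.2, 25.8 and 24.9 CPM in WT libraries, a log2 fold change of 0.26 ± 0.15. Of the WT libraries, replicate 1 alone reached the range of OPA1KO there, and the region was chosen after its values were seen. These 3 regions were 37.3 to 61.0 kb from the Flt3 start.

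**Figure D4:**
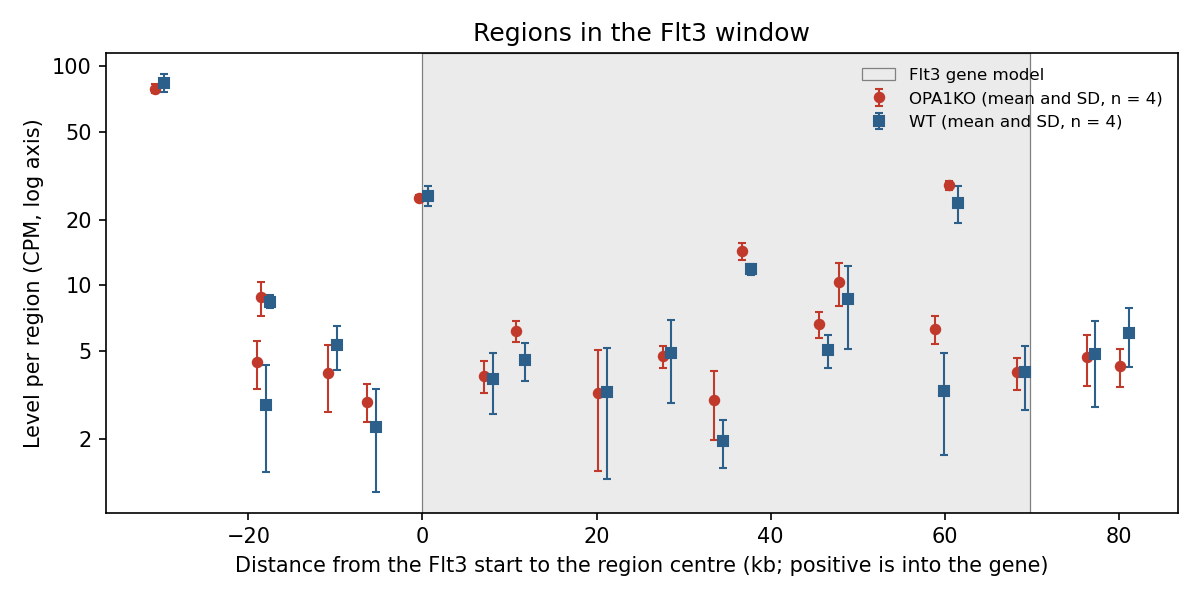
Level in CPM (log axis) of the 19 regions in the Flt3 window against distance from the Flt3 start in kb (positive values run into the gene, which is shaded), with means and SD of OPA1KO and WT libraries (n = 4 each). The highest point, at the far left, is the region at an end of Pan3, and the groups are close at most regions.

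The highest region of the Flt3 window, at 147429893 to 147431507, lay at an end of Pan3, a gene for a subunit of an mRNA deadenylase, and was at 79.2 ± 3.48 CPM in OPA1KO libraries and 84.3 ± 8.10 CPM in WT libraries (SD, n = 4 each, log2 fold change -0.09 ± 0.09). Over the whole window, sums were 225.9, 224.4, 218.0 and 232.4 CPM in OPA1KO libraries and 228.1, 217.4, 202.7 and 212.1 CPM in WT libraries, a log2 fold change of 0.09 ± 0.06 (edgeR adjusted p = 1.00). WT replicate 1 lay above all OPA1KO libraries but replicate 4. Among 8627 genes whose windows share no region with Flt3 and whose mean sum was at or above the median, those whose log2 sums followed the Flt3 sum most closely over the 8 libraries were Pik3ip1 with a Pearson r of 0.93, Prdx3 with 0.89 and Limk2 with 0.88. These are the highest of 8627 values from libraries that share depth and group, and are given as a description. Pik3ip1 and Limk2 both lie on chromosome 11. Genes whose windows share regions with each other were not removed, so the values of this pair may not be independent.

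Kit, on chromosome 5 at 75574987 to 75656722 on the plus strand, had 10 regions, of which 9 were above 0 with a median log2 fold change of 0.23. The region over the start, 75574781 to 75575198, was at 10.8, 9.25, 9.80 and 11.5 CPM in OPA1KO libraries and 11.7, 7.49, 11.2 and 9.51 CPM in WT libraries. These ranges overlap (0.06 ± 0.20, edgeR adjusted p = 0.985), and a second region within 1 kb, at 75575668 to 75575965, gave 0.02 ± 0.27. The highest region lay inside the gene at 75640522 to 75641110, with 19.4, 19.2, 23.5 and 25.3 CPM in OPA1KO libraries and 21.9, 20.3, 15.8 and 18.5 CPM in WT libraries (0.19 ± 0.16, edgeR adjusted p = 0.894). It was thus higher than both regions at the Kit start.

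Outside the gene, 14437 bases beyond its far end, the region at 75671159 to 75671457 was at 7.40, 9.61, 6.71 and 5.25 CPM in OPA1KO libraries and 3.96, 4.52, 5.28 and 5.20 CPM in WT libraries. OPA1KO replicates 1 to 3 were above all WT libraries, and replicate 4 was within their range (0.61 ± 0.25, edgeR unadjusted p = 0.0210, adjusted p = 0.697). Over the whole window of Kit, sums were 64.6, 76.9, 74.3 and 79.6 CPM in OPA1KO libraries and 68.9, 58.2, 62.5 and 62.1 CPM in WT libraries. OPA1KO replicate 1 lay below WT replicate 1, and the other 3 OPA1KO libraries lay above all WT libraries. The log2 fold change of the sum was 0.25 ± 0.09 with a 95% interval of 0.06 to 0.44, and did not pass the test over all genes (edgeR unadjusted p = 0.0146, adjusted p = 1.00). Kit marks mast cells. Of 5 other mast cell and basophil marker genes, Hdc alone had a region at an end, at 3.28 to 5.37 CPM in OPA1KO libraries and 3.20 to 5.46 CPM in WT libraries, and Cpa3, Fcer1a, Ms4a2 and Gata2 had none. Their window sums had log2 fold changes of 0.37 ± 0.22 for Ms4a2, 0.24 ± 0.15 for Gata2, -0.05 ± 0.15 for Hdc and -0.24 ± 0.24 for Cpa3. None of these sums was called, and Fcer1a had no tested sum. Their part in the values at Kit was not tested.

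Csf1r, on chromosome 18 at 61105572 to 61131139, had 7 regions, of which 1 was above 0. Its highest region lay inside the gene at 61108343 to 61108908, with 22.1, 25.8, 24.7 and 24.8 CPM in OPA1KO libraries and 26.8, 23.7, 27.4 and 24.9 CPM in WT libraries (-0.08 ± 0.14, edgeR adjusted p = 0.957). The region over the end of the gene model nearer the lower coordinate, at 61105495 to 61105963, was at 17.8, 14.5, 18.2 and 13.6 CPM in OPA1KO libraries and 16.7, 17.3, 12.7 and 19.4 CPM in WT libraries. The groups overlapped in both regions. At the other end, the region at 61131341 to 61131648 is shared with an end of Hmgxb3 (-0.07 ± 0.32).

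The region of Csf1r with the smallest p lay outside the gene, 14170 bases from its span at 61090664 to 61091402. It was at 8.83, 7.26, 3.62 and 5.09 CPM in OPA1KO libraries and 8.52, 9.05, 10.3 and 10.8 CPM in WT libraries. OPA1KO replicate 1 lay within the WT range and the other 3 below it (-0.64 ± 0.24, edgeR unadjusted p = 0.0129, adjusted p = 0.633). The window sum was 59.0 ± 4.30 CPM in OPA1KO libraries and 64.7 ± 2.50 CPM in WT libraries (SD, n = 4 each, log2 fold change -0.11 ± 0.08, edgeR adjusted p = 1.00). Other monocyte and macrophage markers were also at lower sums: regions at the ends of 10 of 11 such genes besides Csf1r summed to 60.4 to 71.5 CPM in OPA1KO libraries and 78.1 to 91.2 CPM in WT libraries, which do not overlap, and 2 of 10 were above 0. The median of the 10 log2 fold changes was -0.47, and 0 were called. Over all tested regions at gene ends, 40.1% were above 0. Window sums of the 11 genes were above 0 for 4 and below 0 for 7, with a median of -0.14. All of the 10 had counts in both groups, and their part in the values at Csf1r was not tested.

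Csf2rb and Csf2rb2 lie side by side on chromosome 15, at 78325800 to 78351001 and at 78282507 to 78305721. They are close copies of each other, so reads could be split between them, and values inside them are uncertain. At Csf2rb, the start region at 78325673 to 78326167 was the highest of its window, with 13.7, 11.6, 14.1 and 8.86 CPM in OPA1KO libraries and 9.59, 12.0, 15 and 14.2 CPM in WT libraries (-0.06 ± 0.20, edgeR adjusted p = 0.984). OPA1KO replicate 4 and WT replicate 1 were the low libraries. The start region of Csf2rb2 at 78305562 to 78305815 was the least open start of the 10 genes, with 5.55, 5.08, 3.09 and 3.77 CPM in OPA1KO libraries and 5.02, 2.81, 4.86 and 3.05 CPM in WT libraries (0.15 ± 0.30, edgeR adjusted p = 0.965).

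The region with the smallest p of both windows, 78320862 to 78321161, lies between the genes and was at 10.1, 9.25, 6.84 and 9.68 CPM in OPA1KO libraries and 6.24, 6.39, 9.71 and 5.38 CPM in WT libraries. WT replicate 3 and OPA1KO replicate 3 crossed the order of the groups (0.38 ± 0.23, edgeR adjusted p = 0.830). The highest region of the Csf2rb2 window lay far from the gene, 23887 bases from its span at 78257317 to 78258620, with 118, 115, 119 and 73.4 CPM in OPA1KO libraries and 81.3, 125, 82.8 and 95.8 CPM in WT libraries (0.14 ± 0.17, edgeR adjusted p = 0.936). It lies inside Ncf4, which encodes a subunit of the phagocyte NADPH oxidase, and held most counts of that window, so the window sum of 178 ± 30.8 CPM in OPA1KO libraries and 164 ± 26.6 CPM in WT libraries (0.14 ± 0.12) mostly reads this region and not Csf2rb2. The Csf2rb window summed to 55.7 ± 7.83 CPM in OPA1KO libraries and 54.2 ± 4.88 CPM in WT libraries (0.07 ± 0.11).

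Csf3r, on chromosome 4 at 126023441 to 126044975 on the plus strand, had a start region at 126024488 to 126024871 with 6.83, 6.35, 8.05 and 5.42 CPM in OPA1KO libraries and 6.39, 7.33, 8.02 and 6.82 CPM in WT libraries. The groups overlapped (-0.09 ± 0.23, edgeR adjusted p = 0.977). It also covers the start of Gm32908. The highest region of the window was at an end of Mrps15, a mitochondrial ribosomal protein gene, with 29.1 ± 0.555 CPM in OPA1KO libraries and 27.6 ± 4.15 CPM in WT libraries (SD, n = 4 each, 0.08 ± 0.13). Inside Mrps15, at 126051658 to 126051957, values were 3.99, 2.18, 5.23 and 6.07 CPM in OPA1KO libraries and 8.37, 7.17, 5.28 and 4.67 CPM in WT libraries. WT replicates 1 and 2 were above all OPA1KO libraries, and the others overlapped (-0.54 ± 0.29, edgeR adjusted p = 0.806). The window sum was 118 ± 7.40 CPM in OPA1KO libraries and 116 ± 9.30 CPM in WT libraries (0.05 ± 0.07). Csf3r is a neutrophil gene. Regions at the ends of 4 of 6 other neutrophil marker genes summed to 53.5 to 73.7 CPM in OPA1KO libraries and 52.2 to 88.4 CPM in WT libraries, which overlap.

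Among the interferon receptor genes, Ifnar1 had the most open start per kb. It lies on chromosome 16 at 91485032 to 91510523 on the plus strand, and its start region at 91484836 to 91485437 was at 144, 149, 144 and 117 CPM in OPA1KO libraries and 117, 155, 140 and 139 CPM in WT libraries. The groups covered nearly the same range, with a log2 fold change of 0.01 ± 0.09 and a 95% interval of -0.18 to 0.19 (edgeR adjusted p = 0.997). No region of the table lay inside Ifnar1 away from its start. The region with the smallest p, outside the gene at 91475796 to 91476170, was at 7.12, 8.89, 9.39 and 11.3 CPM in OPA1KO libraries and 7.91, 4.99, 8.02 and 7.90 CPM in WT libraries (0.35 ± 0.23, edgeR adjusted p = 0.847).

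One region of the Ifnar1 window, at 91470629 to 91470824, was too low to pass the filter on counts, and it is described here because it is the only one of the 107 left out. It was at 9, 13, 19 and 15 counts in OPA1KO libraries and 2, 0, 3 and 8 counts in WT libraries, or 1.28, 2.36, 2.55 and 2.46 CPM against 0.304, 0, 0.633 and 1.44 CPM. The OPA1KO libraries 2 to 4 lay above all WT libraries and OPA1KO replicate 1 lay below WT replicate 4 in CPM. Without the filter its log2 fold change was 1.89 ± 0.62 and it was not called (edgeR unadjusted p = 0.00458, adjusted p = 0.512). The Ifnar1 window sum was 328 ± 19.1 CPM in OPA1KO libraries and 321 ± 26.0 CPM in WT libraries (SD, n = 4 each, 0.05 ± 0.06).

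Ifnar2, on the same chromosome at 91372783 to 91405589, had a start region at 91372567 to 91373566 with 23.8, 23.0, 27.5 and 18.4 CPM in OPA1KO libraries and 17.7, 23.5, 19.8 and 20.6 CPM in WT libraries. OPA1KO replicates 1 and 3 were above all WT libraries, and the rest overlapped (0.19 ± 0.15, edgeR adjusted p = 0.892). That was the largest positive value at any start of the 10 genes. The highest region of the window was at an end of Il10rb, which encodes a chain of the receptors for IL-10 and interferon lambda, with 66.5, 67.3, 66.7 and 57.4 CPM in OPA1KO libraries and 50.5, 76.6, 55.1 and 66.0 CPM in WT libraries (0.05 ± 0.11). Inside Ifnar2, at 91398028 to 91398582, a region at 53.7 ± 8.34 CPM in OPA1KO libraries and 57.6 ± 13.9 CPM in WT libraries was more open than the start (SD, n = 4 each, -0.10 ± 0.15). It was chosen after its values were seen. The region with the smallest p, at 91417004 to 91417273 inside Il10rb, was at 2.71, 2.54, 1.88 and 4.60 CPM in OPA1KO libraries and 5.33, 1.40, 5.91 and 5.74 CPM in WT libraries, where WT replicate 2 was the lowest of all (-0.64 ± 0.37, edgeR adjusted p = 0.825). The window sum was 295 ± 27.4 CPM in OPA1KO libraries and 293 ± 47.6 CPM in WT libraries (0.03 ± 0.09).

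Ifngr1, on chromosome 10 at 19591949 to 19610229 on the plus strand, had its start region at 19591346 to 19592251, with 136, 138, 159 and 146 CPM in OPA1KO libraries and 146, 164, 160 and 154 CPM in WT libraries. OPA1KO replicates 1, 2 and 4 were below all WT libraries, replicate 4 by little, and replicate 3 was within their range (-0.11 ± 0.08, edgeR adjusted p = 0.873), with a 95% interval of -0.27 to 0.05. Beyond the far end of the gene, 4121 bases from it at 19614350 to 19614706, values were 8.26, 9.80, 8.05 and 13.5 CPM in OPA1KO libraries and 7.91, 5.61, 7.18 and 5.38 CPM in WT libraries. Every OPA1KO library was above every WT library, by little between OPA1KO replicate 3 and WT replicate 1 (0.59 ± 0.23, edgeR unadjusted p = 0.0145, adjusted p = 0.646). It was the third region with groups that did not overlap, after the pair in Flt3. The neighbouring region at 19613585 to 19613847, chosen after its values were seen, was at 5.98, 2.72, 3.49 and 4.10 CPM in OPA1KO libraries and 1.67, 1.87, 1.27 and 3.95 CPM in WT libraries (0.90 ± 0.37, edgeR adjusted p = 0.699), and the region just before it had a value below 0 (-0.42 ± 0.45). The start region held most of the window's counts, and the window sum was 189 ± 12.7 CPM in OPA1KO libraries and 195 ± 8.88 CPM in WT libraries (-0.02 ± 0.06).

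Il4ra, on chromosome 7 at 125552271 to 125579474 on the plus strand, had 17 regions. Its start region at 125552012 to 125552459 was the highest, with 50.7, 45.2, 49.2 and 46.9 CPM in OPA1KO libraries and 38.6, 54.4, 39.7 and 47.9 CPM in WT libraries. The OPA1KO libraries lay within the range of the WT libraries (0.09 ± 0.12, edgeR adjusted p = 0.941). At 125599680 to 125599865, outside the gene, values were 3.27, 2.54, 2.01 and 3.94 CPM in OPA1KO libraries and 3.65, 5.61, 3.17 and 5.03 CPM in WT libraries. The groups overlapped (-0.58 ± 0.32, edgeR adjusted p = 0.821). The window sum was 224.9, 222.6, 220.3 and 222.4 CPM in OPA1KO libraries and 196.9, 265.1, 213.9 and 216.8 CPM in WT libraries (0.02 ± 0.07, edgeR adjusted p = 1.00). The WT libraries spread more widely than the OPA1KO libraries there, with WT replicate 2 highest.

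**Figure D5:**
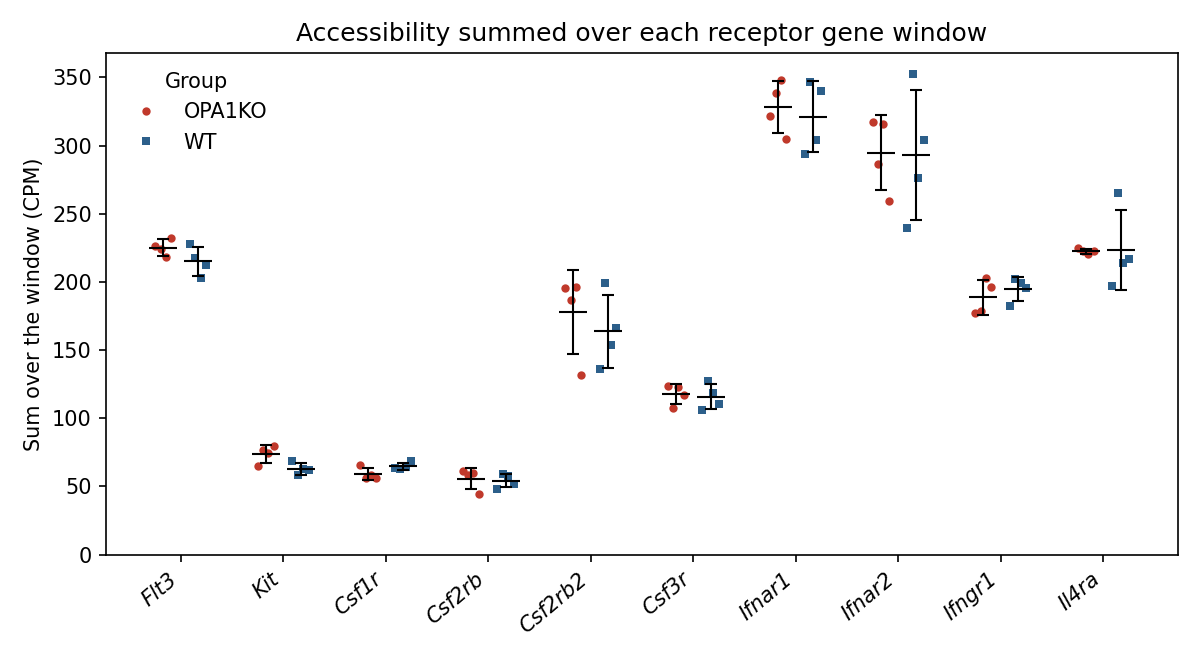
Summed level in CPM of all regions in the window of each receptor gene, per library, OPA1KO left of WT, with bars at each group mean and SD (n = 4 each). The groups overlap at every gene, and Kit shows the largest log2 difference, 0.25.

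Genes of the same pathways, like the marker genes above, were read at the region of highest level within 1 kb of either end of the gene. Such a region can lie at the far end or be shared with a neighbouring gene, which was not checked for these lists. Of 12 ligand genes 5 had such a region, of 7 partner receptor chains 5, of 4 JAK family kinases 4, of 14 inhibitors and adaptors 13 and of 7 STAT factors 5, and 0 were called in any list. Log2 fold changes were above 0 for 4 of 5 ligands, 3 of 5 partner chains, 4 of 4 kinases, 5 of 13 inhibitors and adaptors and 3 of 5 STAT genes, and list medians lay between -0.05 and 0.05. Stat3, a transcription factor downstream of FLT3 and CSF3R, was at 201 CPM in OPA1KO libraries and 200 CPM in WT libraries (0.01 ± 0.09). Jak2, the kinase that pairs with CSF2RB and IFNGR2, was at 142 CPM in both groups (0.00 ± 0.09). Il3ra, the IL-3-binding chain that pairs with the CSF2RB proteins, was at 163 CPM in OPA1KO libraries and 178 CPM in WT libraries (-0.13 ± 0.08, edgeR adjusted p = 0.846). Flt3l, the ligand of FLT3, was at 23.4 CPM in OPA1KO libraries and 22.9 CPM in WT libraries (0.03 ± 0.14). Of these genes Cblb, for a ubiquitin ligase that restrains cytokine and antigen receptor signals, had the smallest p, at 82.8 CPM in OPA1KO libraries and 94.6 CPM in WT libraries (-0.19 ± 0.09, edgeR unadjusted p = 0.0395, adjusted p = 0.760). It was chosen after its values were seen, as were the other pathway genes named here.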

How the data were processed

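The deposited values are counts, whole numbers per region and library with no normalization, over 1 region set shared by 8 libraries, as the values show. The tools named per the submitters' processing notes are MACS2 2.1.0.20150603, bedtools, SAMtools, Picard 1.65 and cutadapt 1.9, and the builds are GRCm38 and mm10. What each did and with which settings, whether read ends were shifted for the transposase, whether a blacklist was applied, the rule behind the common regions, and whether starts count from 0 or 1 are not given in the sources used here. Per the labels' protocols, nuclei of lysed cells were treated with transposase and the DNA was purified and amplified.

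Regions were filtered with filterByExpr of edgeR 4.0.16 in R 4.3.3, which kept 59247 of 59906, scaled with TMM factors (0.947 to 1.03) and tested with the robust quasi-likelihood fit on the 8 libraries, with the group as the only term. Benjamini-Hochberg adjustment covered every tested region, and an adjusted p under 0.05 was a call. The common dispersion was 0.0270. Over the 12 pairs of libraries within groups, the chi-square of counts per degree of freedom was 2.16 to 4.77, so no library was an exact copy of another. Because both ends of a read pair may have been counted, these values cannot decide whether any libraries came from the same sample. Window sums were tested in the same way over 17224 of 17257 protein-coding genes with a region within 30 kb, and neighbouring genes share regions. Gene spans, starts and promoter sequences came from RefSeq tables of GRCm38.p6, where all 10 genes matched a span and 8 a promoter. A start region lies within 1 kb of a start, or of either end of the gene model for Csf1r and Csf2rb. For the comparison with CG counts, a region had to overlap the promoter. Correlation with Flt3 used log2 of the window sum in CPM plus 1. The procedure was tested on simulated counts. The 10 genes and all gene lists were chosen with earlier results of these data known. The text names each region at a gene's own start or end, the highest, the one with the smallest p, any called, and any of at least median level whose groups do not overlap. Others named were chosen after their values were seen. The alternatives were DESeq2 size factors or library totals for scaling, DESeq2 1.42.0 and limma-voom (limma 3.58.1) as tests, the filter dropped or set to a CPM of 2 in 4 libraries, windows of 0, 10 and 50 kb, the replicate number as a block, and each library left out in turn.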

Additional observations from a re-analysis of the deposited data

Results flagged for a closer look

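In 76 groups of 4 libraries, formed by the regions and window sums named above, the lowest or highest library was checked for a gap from the other 3 that took up most of the group's range (Dixon's 95% critical value). Chance gives such a gap in about 1 in 20 groups, and 6 were found, all from OPA1KO replicate 4 or WT replicate 2. OPA1KO replicate 4 was low at the region inside Ncf4 in the Csf2rb2 window (78257317 to 78258620), with 73.4 CPM against 115 to 119 CPM in the other OPA1KO libraries. The Csf2rb2 window sum, which is mostly that region, was 132 CPM there against 187 to 196 CPM. The same library was low at the Il10rb end in the Ifnar2 window (91405605 to 91407191), with 57.4 CPM against 66.5 to 67.3 CPM. WT replicate 2 was high at the Pan3 end in the Flt3 window (147429893 to 147431507), with 96.4 CPM against 79.5 to 80.9 CPM in the other WT libraries. It was low at 2 regions of the interferon receptor windows, one outside Ifnar1 and one inside Il10rb, with 4.99 CPM against 7.90 to 8.02 CPM at 91475796 to 91476170, and 1.40 CPM against 5.33 to 5.91 CPM at 91417004 to 91417273. None of these regions was called by edgeR.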

How the results depend on the processing

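No receptor gene region was called under any alternative run, and the smallest adjusted p over all of them was 0.234, by edgeR without WT replicate 2. The median log2 fold change of these regions, 0.03, was 0.01 to 0.08 with 1 library left out. Calls over all regions numbered 12, against 43 with DESeq2, 4 with limma-voom and 1 to 68 with 1 library left out. There were 68 without WT replicate 2, 22 without OPA1KO replicate 4, 4 without OPA1KO replicate 2, and 1 without OPA1KO replicate 1 or 3 or WT replicate 3 or 4. Calls over window sums numbered 4, against 11 with DESeq2 and 3 to 21 with 1 library left out, the most again without WT replicate 2. With the replicate number as a block, 1 region was called, and 0 of the receptor genes'. Same-numbered libraries did not deviate together (correlations of -0.13 to -0.01), and no OPA1KO library correlated best with the WT library of its own number. The labels do not say what the number marks, and these few correlations cannot show that nothing else is shared.

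Of 600 values for single regions and window sums, 28 changed sign, and none was called. The reversed value furthest from 0 was 0.18, at an end of Csf1r. With the gene span alone, the Csf3r sum was at -0.053 and the Ifnar2 sum at -0.012. The other 26 came from leaving out 1 library. The ranges were -0.072 to 0.030 at the Flt3 start, -0.064 to 0.15 and -0.084 to 0.22 at the 2 Kit start regions, -0.13 to 0.044 and -0.34 to 0.18 at the ends of Csf1r, -0.17 to 0.065 at the Csf2rb start, -0.20 to 0.00054 at the Csf3r start, -0.0095 to 0.15 at the Mrps15 end, -0.059 to 0.084 at the Ifnar1 start and -0.029 to 0.17 at the Il10rb end. Window sums ranged from -0.048 to 0.12 for Ifnar2, -0.051 to 0.0039 for Ifngr1 and -0.032 to 0.096 for Il4ra. The cause was not tested. Depth limits the low regions, which have the wide intervals, and the share of both copies at Csf2rb and Csf2rb2 is unknown.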
